A study of Mus musculus with 6 samples.

Results

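The *Smarca*, *Smarcc*, *Smarcd*, *Arid1* and *Actl6* genes encode subunits of the SWI/SNF (BAF) chromatin remodelling complex, several of which exist as alternative paralogs. Expression of 10 of these genes, *Smarca2*, *Smarca4*, *Smarcc1*, *Smarcc2*, *Smarcd1*, *Smarcd2*, *Smarcd3*, *Arid1a*, *Arid1b* and *Actl6a*, was examined in differentiating C2C12 cells, and paralogs were compared with each other. The genes were selected by symbol, and all 10 were found once each among the 54525 gene rows of the deposited count tables. RNA-seq covered 3 samples of wild-type (WT) C2C12 cells with no treatment at day 0 (D0, myoblasts) and 3 samples after 5 days of differentiation (D5, myotubes), which was started by a change from fetal bovine to horse serum. C2C12 is an immortalized mouse myoblast line, so the samples are repeats of a single line, and their spread may be technical. The labels call the cells of both days myoblasts.

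SWI/SNF complexes use the energy of ATP to move or evict nucleosomes and thereby open promoters and enhancers. Each complex carries either SMARCA4 (BRG1) or SMARCA2 (BRM) as its ATPase, a core built on SMARCC1 (BAF155) and SMARCC2 (BAF170), a SMARCD (BAF60) subunit that contacts transcription factors, and, in the BAF form, ARID1A or ARID1B. In skeletal muscle, SMARCD3 (BAF60C) is known as the BAF60 paralog that associates with MyoD on muscle promoters, and BRG1 is known to be needed for activation of muscle genes by MyoD.

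The libraries held between 36555048 and 40895840 counts on genes at D0 and between 25449759 and 25811300 at D5, and every one of the 10 genes had at least 508 counts in every library. ERCC spike-ins, synthetic RNAs added to the samples, took from 0.720% to 2.09% of the counts. The summed expression of 5 myotube markers (*Myog*, *Mymk*, *Myh3*, *Ckm* and *Acta1*) rose from between 26.3 and 33.5 CPM (counts per 1000000 counts, scaled with TMM factors) at D0 to between 9808 and 10484 CPM at D5, while that of the myoblast markers *Myod1*, *Myf5* and *Pax7* went from between 339 and 356 CPM to between 154 and 160 CPM. All 6 proliferation markers fell, from a sum of at least 1822 CPM in any D0 library to at most 111 CPM in any D5 library, so they moved together with differentiation in every comparison given here, and their part in the results was not tested. Among markers of other cell types, *Lep*, *Ibsp* and *Rbfox3* were at 0 in every library, and *Adipoq*, *Plin1*, *Sp7*, *Bglap*, *Snap25*, *Syt1*, *Ptprc* and *Cdh5* had at most 5 counts in any library. Of the rest, *Cebpa* rose to 24.0 CPM and *Stmn2* to 33.3 CPM at D5. *Dmp1* rose from a mean of 0.083 CPM at D0 to 0.63 CPM at D5, and *Cd68* decreased from 3.15 to 2.22 CPM. *Pecam1* had at most 7 counts in any library. Summed over each list of 4 markers, the range was 0.347 to 0.523 CPM at D0 and 23.8 to 24.1 CPM at D5 for adipocytes, 0.133 to 0.214 and 0.637 to 1.01 CPM for osteoblasts, 3.33 to 4.21 and 31.3 to 35.8 CPM for neurons, and 3.23 to 3.41 and 2.05 to 2.68 CPM for blood and endothelium. Because bulk RNA was measured, a change in the share of cells that express a gene and a change of its RNA per cell cannot be told apart.

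To determine how expression of the paralogs changed during differentiation, the quasi-likelihood test of edgeR was applied to D5 against D0, and p-values were adjusted by Benjamini-Hochberg over all 16290 genes tested. All 10 genes passed the adjusted p threshold of 0.05. Expression of 8 (*Smarca4*, *Smarcc1*, *Smarcc2*, *Smarcd1*, *Smarcd2*, *Smarcd3*, *Arid1a* and *Actl6a*) decreased in myotubes, and expression of *Smarca2* and *Arid1b* increased. Changes past this threshold were common in these data. Of all genes tested, 82.9% passed it, with 40.8% lower and 42.2% higher at D5. Groups that did not overlap were equally common, with every D5 library below every D0 library for 41.1% of genes and above for 42.2%, against 8 and 2 of the 10 paralogs. The median log2 fold change of the 10 was -0.73, against 0.0022 for all genes tested. A call alone is therefore no mark of these genes, and the size and direction of each change are given gene by gene.

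**Figure D1:**
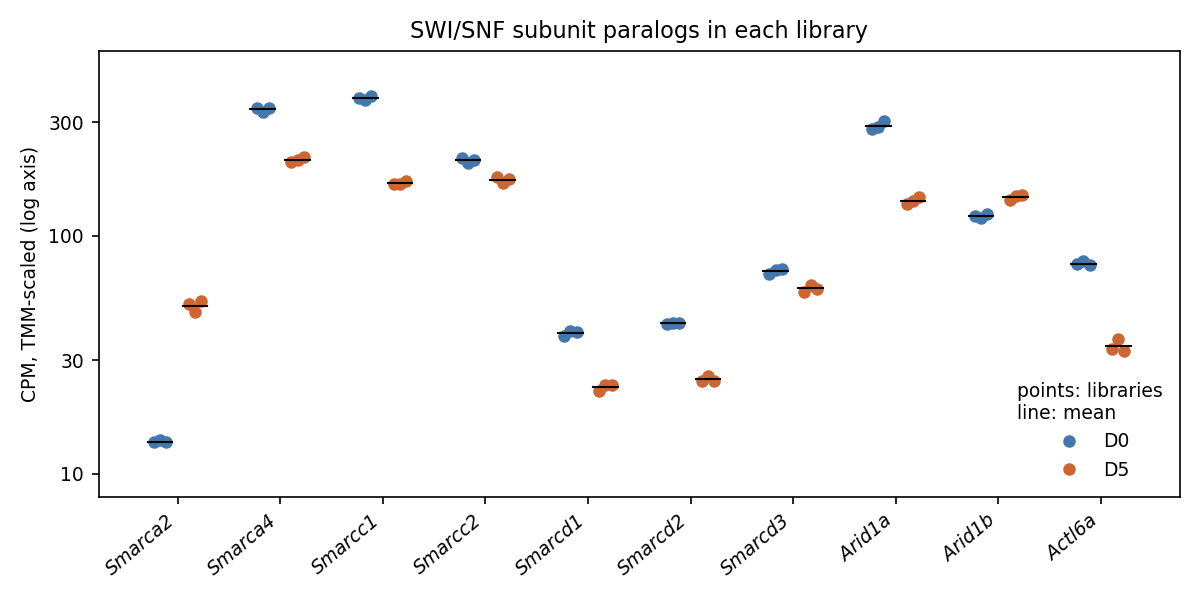
Expression of the 10 SWI/SNF subunit genes in each library, in TMM-scaled CPM on a log axis, with 3 D0 (blue) and 3 D5 (orange) points per gene and a line at the mean. The D0 and D5 points do not overlap for any of the 10 genes, and the D5 points lie above the D0 points for *Smarca2* and *Arid1b* only.

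The paralogous ATPases moved in opposite directions. *Smarca2* encodes BRM, and its gene lies on chromosome 19 of GRCm38 from 26605050 to 26778322 (ENSMUSG00000024921.17). *Smarca2* had 13.6, 13.8 and 13.5 CPM in the D0 libraries and 51.6, 47.8 and 53.0 CPM in the D5 libraries. The lowest D5 library was thus more than 3 times the highest D0 library. The log2 fold change was 1.90 (SE, standard error, 0.052, edgeR adjusted p = 1.8e-24), a 3.72-fold rise, and 11.1% of all genes tested had a higher log2 fold change. *Smarca4*, which encodes BRG1 (ENSMUSG00000032187.16, chromosome 9 from 21616169 to 21704230), had 344, 333 and 345 CPM at D0 and 205, 208 and 215 CPM at D5. Expression of *Smarca4* decreased to 61.5% of the D0 level, a log2 fold change of -0.70 (SE 0.033, edgeR adjusted p = 1.8e-18). *Smarca4* remained the more abundant of the pair in every library. The annotation holds *Smarca2* transcripts that start inside the gene, and the counts, which are per gene, do not separate them from the full-length form.

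The 250 bases before the RefSeq start of each ATPase gene are shown because these promoters belong to the pair that moved apart. G and C make up 68.4% of the *Smarca2* window and 70.8% of the *Smarca4* window, and neither holds CAGCTG, the E-box preferred by MyoD and myogenin, nor TTTGGCGC or TTTCCCGC, forms of the E2F site, on either strand.
Smarca2 (chr19:26604910-26605159, plus strand, GRCm38.p6): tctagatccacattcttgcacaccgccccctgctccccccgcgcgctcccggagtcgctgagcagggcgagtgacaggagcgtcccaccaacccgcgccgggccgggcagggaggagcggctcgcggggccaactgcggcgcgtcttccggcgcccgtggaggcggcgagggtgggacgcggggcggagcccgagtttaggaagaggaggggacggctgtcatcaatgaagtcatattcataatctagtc
Smarca4 (chr9:21615919-21616168, plus strand, GRCm38.p6): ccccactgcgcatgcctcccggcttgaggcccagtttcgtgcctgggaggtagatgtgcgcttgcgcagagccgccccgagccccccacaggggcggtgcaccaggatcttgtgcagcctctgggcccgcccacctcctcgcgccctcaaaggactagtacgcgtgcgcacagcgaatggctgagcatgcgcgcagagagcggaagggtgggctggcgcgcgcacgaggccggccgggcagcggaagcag
The RefSeq start of *Smarca2* lies downstream of the start given above, which is from GENCODE, so the window shown reaches past the latter.

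The SMARCC paralogs, which form the scaffold of the complex, both decreased, but by different amounts. *Smarcc1* (ENSMUSG00000032481.17, chromosome 9 from 110117708 to 110240178) had 381, 374 and 387 CPM at D0 and 165, 165 and 171 CPM at D5. With a log2 fold change of -1.19 (SE 0.033, edgeR adjusted p = 1.9e-24), *Smarcc1* had the lowest value of the 10 genes, at 43.8% of the D0 level, within the SE of the value of *Actl6a*. *Smarcc2* (ENSMUSG00000025369.15, chromosome 10 from 128459248 to 128490482) had 213, 203 and 209 CPM at D0 and 177, 166 and 173 CPM at D5, a log2 fold change of -0.27 (SE 0.034, edgeR adjusted p = 1.3e-08). In counts, *Smarcc1* was ahead of *Smarcc2* in all 3 D0 libraries and behind it in all 3 D5 libraries.

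The SMARCD (BAF60) family has 3 members, all of which decreased. *Smarcd3*, which encodes BAF60C (ENSMUSG00000028949.13, chromosome 5 from 24590818 to 24624411, minus strand), had 69.2, 71.9 and 72.7 CPM at D0 and 58.0, 62.4 and 60.0 CPM at D5. It decreased to 84.4% of the D0 level, with a log2 fold change of -0.24 (SE 0.040, edgeR adjusted p = 2.0e-06), and the groups did not overlap. This was the value nearest to 0 among the 8, within the SE of that of *Smarcc2*. With libraries scaled to the ERCC spike-ins the call of *Smarcd3* was lost (log2 fold change -0.80, edgeR adjusted p = 0.229), and so was that of *Smarcc2* (-0.85, edgeR adjusted p = 0.196). *Smarcd1*, which encodes BAF60A (ENSMUSG00000023018.5, chromosome 15 from 99702129 to 99713991), had 37.8, 39.9 and 39.6 CPM at D0 and 22.2, 23.6 and 23.5 CPM at D5, a log2 fold change of -0.76 (SE 0.049, edgeR adjusted p = 8.1e-15). *Smarcd2*, which encodes BAF60B, a paralog known for its role in granulocytes (ENSMUSG00000078619.10, chromosome 11 from 106263179 to 106272972), had 42.7, 43.2 and 43.2 CPM at D0 and 24.6, 25.7 and 24.5 CPM at D5. Its log2 fold change was -0.79 (SE 0.047, edgeR adjusted p = 8.4e-16), so *Smarcd1* and *Smarcd2* each came to between 58.0% and 59.1% of their D0 level. *Smarcd3* was the most abundant of the family by counts in every library of both days.

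The counts of *Smarcd3* carry a limit that touches the others far less. Of its exonic bases, 48.2% lie under exons of *Chpf2* or *Mir671* on the opposite strand. In the longest coding transcript of *Smarcd3*, exons of *Chpf2* touch 5 of the 13 exons and cover 37.0% of the bases. The strand setting of the counting is not given in the sources used here, and without it reads from *Smarcd3* and *Chpf2* in these bases cannot be told apart. *Chpf2*, named here because of this overlap, stood at 62.3 ± 1.97 CPM in D0 libraries against 64.3 ± 1.56 CPM in D5 libraries (SD, n = 3 each) and was not called, with 0.05 as log2 fold change (edgeR adjusted p = 0.293). For the other 9 paralogs at most 12.7% of the exonic bases were overlapped on the opposite strand, in *Smarcd1*, followed by 11.6% in *Actl6a*. No 50-base stretch of the annotated transcripts of any of the 10 genes occurs in another of them.

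The promoter of *Smarcd3* is shown because it was the family member that decreased least and is the one tied to MyoD, with that of *Smarcd1* beside it. *Smarcd2* decreased about as much as *Smarcd1* (log2 fold changes -0.79 and -0.76). The window of *Smarcd2*, not shown, holds neither CAGCTG nor the E2F forms. The capitals mark matches to CAGCTG (in *Smarcd3*, from position -237 relative to the RefSeq start) and to TTTCCCGC (in *Smarcd1*, from position -131). By the GENCODE positions given above, the *Smarcd3* window lies inside the gene, and the *Smarcd1* window reaches past the gene start. Both marked matches thus lie within the annotated gene spans.
Smarcd3 (chr5:24602003-24602252, minus strand, GRCm38.p6): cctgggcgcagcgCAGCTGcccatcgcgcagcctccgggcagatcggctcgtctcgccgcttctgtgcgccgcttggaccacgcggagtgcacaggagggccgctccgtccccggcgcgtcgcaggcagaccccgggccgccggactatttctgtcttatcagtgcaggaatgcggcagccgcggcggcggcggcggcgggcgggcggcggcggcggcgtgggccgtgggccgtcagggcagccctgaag
Smarcd1 (chr15:99702037-99702286, plus strand, GRCm38.p6): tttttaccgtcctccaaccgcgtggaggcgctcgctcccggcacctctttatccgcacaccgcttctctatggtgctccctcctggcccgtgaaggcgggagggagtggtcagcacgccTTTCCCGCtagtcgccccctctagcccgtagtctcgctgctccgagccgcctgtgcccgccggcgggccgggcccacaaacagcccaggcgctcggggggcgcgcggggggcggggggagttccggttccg
RefSeq gave 11 such windows for the 10 genes, with *Arid1a* having 2. CAGCTG occurred in those of 1 of the 10 genes, *Smarcd3*, and in 13.0% of all 32851 windows of this length. The E2F forms occurred in those of 2 genes, *Smarcd1* and *Arid1a*, and in 1.3% of all windows. G and C make up from 56.4% to 81.6% of the 11 windows, and the shares over all windows were not matched for this. By the GENCODE positions, the windows of *Smarcc1*, *Smarcd2*, *Arid1b* and *Actl6a* also lie inside the gene. So does the *Arid1a* window with the E2F match. A match describes the letters only and does not show binding.

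The ARID1 paralogs, the DNA-binding subunits that define the BAF form of the complex, moved in opposite directions. *Arid1a* (ENSMUSG00000007880.16, chromosome 4 from 133679008 to 133756769) had 283, 286 and 303 CPM at D0 and 136, 140 and 146 CPM at D5, a log2 fold change of -1.05 (SE 0.036, edgeR adjusted p = 6.1e-22). *Arid1b* (ENSMUSG00000069729.14, chromosome 17 from 4994332 to 5347656) had 121, 119 and 123 CPM at D0 and 141, 147 and 148 CPM at D5. Expression of *Arid1b* rose 1.20-fold, with a log2 fold change of 0.26 (SE 0.034, edgeR adjusted p = 3.8e-08). When libraries were scaled to the ERCC spike-ins, *Arid1b* was not called, with a log2 fold change of -0.31 (SE 0.51, edgeR adjusted p = 0.672). Counts of *Arid1a* were more than those of *Arid1b* in all D0 libraries, whereas in the D5 libraries the paralogs were nearly level.

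*Actl6a* encodes BAF53A, an actin-related subunit known to be high in dividing progenitor cells. *Actl6a* (ENSMUSG00000027671.14, chromosome 3 from 32706298 to 32726973) had 75.8, 78.2 and 75.2 CPM at D0 and 33.4, 36.8 and 32.9 CPM at D5, and its log2 fold change was -1.15 (SE 0.044, edgeR adjusted p = 1.4e-20). Its paralog *Actl6b*, which replaces it in the complexes of postmitotic neurons, had 0 counts in all 6 libraries. At these depths 0 counts allow up to 3 counts per library. *Mrpl47*, which overlaps *Actl6a* on the opposite strand, went from 23.1 ± 0.644 CPM to 18.4 ± 1.07 CPM (SD, n = 3 each).

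To compare paralogs without relying on the scaling of libraries, the log2 ratio of their counts was taken inside each library. The ratio of *Smarca2* to *Smarca4* was -4.67, -4.59 and -4.67 at D0 and -1.99, -2.12 and -2.02 at D5. This shift of 2.60 (SE 0.047), a 6.05-fold change of the ratio, was the largest of the 6 pairs compared. *Arid1b* to *Arid1a* followed, with ratios from -1.29 to -1.22 at D0 and from 0.02 to 0.07 at D5, a shift of 1.31 (SE 0.026). *Smarcc2* to *Smarcc1* shifted by 0.92 (SE 0.033), from between -0.89 and -0.84 at D0 to between 0.01 and 0.10 at D5. In both of these pairs the sign of the ratio changed, so the paralog with fewer reads at D0 had slightly more at D5.

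Within the SMARCD family, the counts of *Smarcd3* gained on those of both paralogs although they decreased themselves. These ratios carry the limit given above for the overlap with *Chpf2*, which itself had a log2 fold change of 0.05. The part of this overlap in the shifts was not tested. The ratio of *Smarcd3* to *Smarcd1* was 0.87, 0.85 and 0.88 at D0 and 1.38, 1.40 and 1.35 at D5, a shift of 0.51 (SE 0.017). The ratio of *Smarcd3* to *Smarcd2* was 0.70, 0.73 and 0.75 at D0 and 1.24, 1.28 and 1.29 at D5, a shift of 0.54 (SE 0.023). The ratio of *Smarcd2* to *Smarcd1* lay between 0.11 and 0.18 at D0 and between 0.06 and 0.14 at D5, so the groups overlapped. Its shift of -0.03 (SE 0.031) was smaller than the SD of the libraries of either group, 0.033 at D0 and 0.042 at D5. In a two-sided exact permutation test over libraries the other 5 pairs each gave p = 0.1, which is the smallest p that 3 libraries against 3 allow, and 0.12 after adjustment over the 6 pairs, and *Smarcd2* to *Smarcd1* gave p = 0.5. No pair could therefore reach the threshold in this test, and the sizes of the shifts are to be read against the spread of the libraries.

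**Figure D2:**
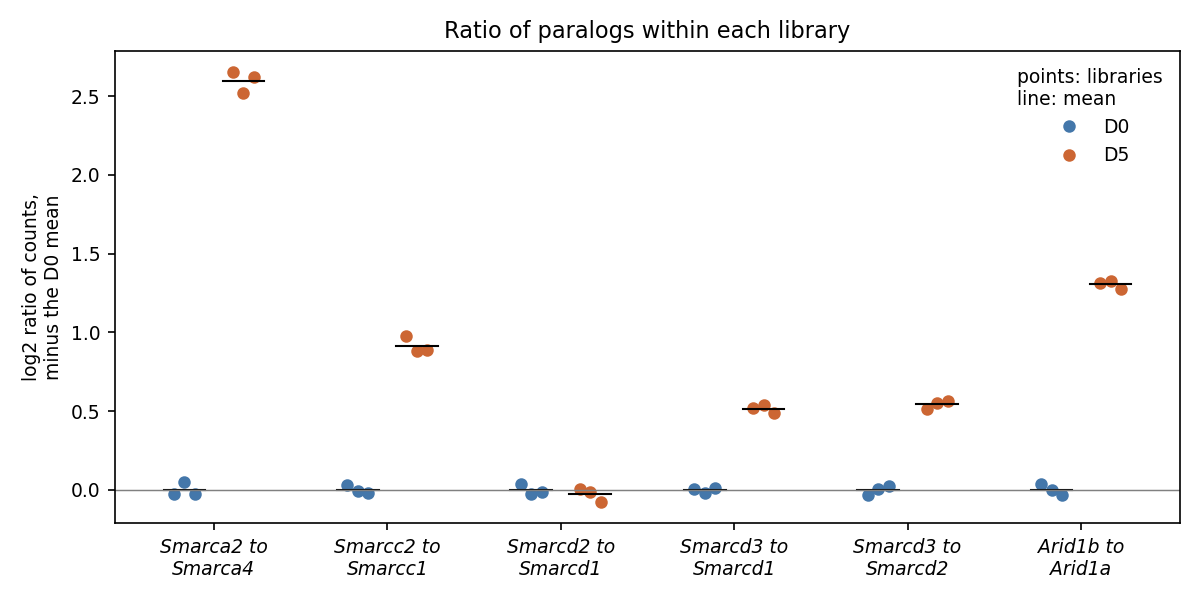
Log2 ratio of the counts of 2 paralogs within each library, minus the D0 mean of that pair, for 6 pairs, with 3 D0 (blue) and 3 D5 (orange) libraries and a line at the mean. The D5 points lie at about 2.60 for *Smarca2* to *Smarca4*, 1.31 for *Arid1b* to *Arid1a* and 0.92 for *Smarcc2* to *Smarcc1*, and they overlap the D0 points only for *Smarcd2* to *Smarcd1*.

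Levels of different genes were compared per length, in TPM computed from the exonic length of each gene. At D0 the order was *Smarca4* (182 TPM), *Smarcc1* (168), *Smarcc2* (130), *Arid1a* (87.6), *Actl6a* (68.0), *Smarcd3* (48.2), *Smarcd2* (41.5), *Smarcd1* (33.6), *Arid1b* (33.3) and *Smarca2* (3.31), and only *Smarcd1* and *Arid1b* overlapped as neighbours. At D5 it was *Smarca4* (100 TPM), *Smarcc2* (96.2), *Smarcc1* (66.1), *Arid1a* (38.04), *Smarcd3* (36.4), *Arid1b* (35.8), *Actl6a* (27.4), *Smarcd2* (21.5), *Smarcd1* (17.8) and *Smarca2* (11.0). *Smarca4* and *Smarcc2* overlapped at D5, and so did *Smarcd3* and *Arid1b*. *Smarcd3* thus had rank 6 at D0 and rank 5 at D5. With the length of the longest coding transcript in place of all exonic bases, a choice made after the data were seen, *Smarcd3* had rank 4 at D0 (142 TPM) and rank 2 at D5 (108 TPM). Its exonic length, pooled over all annotated transcripts, is 5120 bases, against 1735 for the longest coding transcript.

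As shares of each family per length, *Smarca2* made up 1.79% ± 0.0553 of the ATPase pair at D0 and 9.92% ± 0.420 at D5 (SD, n = 3 each). With the longest coding transcript these shares were 4.14% and 20.7%, since the exonic length of *Smarca2* (14269 bases) is far above that of its longest coding transcript (5921 bases). *Smarcc2* went from 43.5% ± 0.459 to 59.3% ± 0.856 of its pair, and *Arid1b* from 27.6% ± 0.510 to 48.5% ± 0.457 of its own (SD, n = 3 each). *Smarcd3* held 39.1% ± 0.268 of the SMARCD family at D0 and 48.1% ± 0.276 at D5 (SD, n = 3 each). Its share was 53.7% at D0 and 62.6% at D5 when only bases free of overlap with other genes were counted as length. The counts were left unchanged, so any reads counted in overlapped bases remain in this share. With the longest coding transcript the share of *Smarcd3* was 59.9% and 68.3%. The level of a share thus depends on the length chosen. The shift between days had the same direction under all 3 lengths for each of the 9 genes. The length of a gene is the same on both days, so within a pair this direction follows from the counts alone. It is therefore no separate check.

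**Figure D3:**
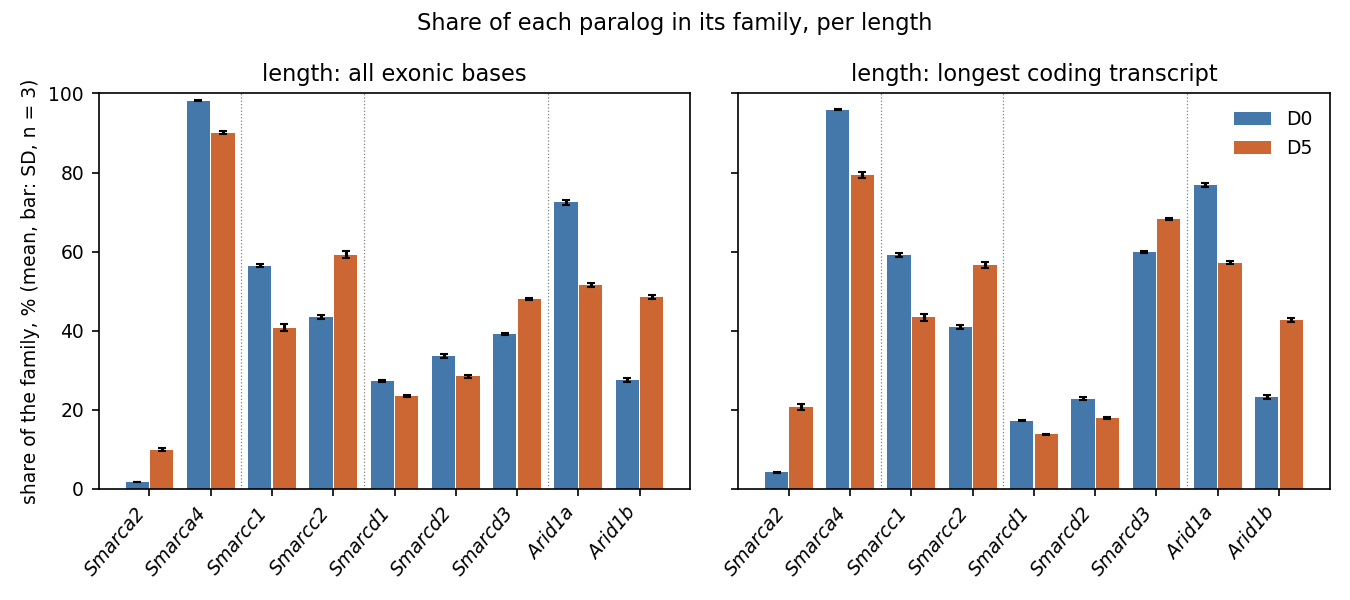
Share of each paralog in its family, in percent of the family's counts per length (mean with SD as error bars, n = 3), at D0 (blue) and D5 (orange), with dotted lines between families. The left panel uses all exonic bases and the right panel the longest coding transcript, and the shares of *Smarca2*, *Smarcc2*, *Smarcd3* and *Arid1b* are higher at D5 in both.

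Summed per kilobase of exon and scaled with TMM factors, each family was lower at D5. The ATPase pair went from 53.5 ± 0.999 to 35.9 ± 0.926 CPM per kilobase, 67.0% of the D0 level (SD, n = 3 each). The rise of *Smarca2* was thus small beside the decrease of *Smarca4*. The sums were at 60.7% of the D0 level for the SMARCC pair, 68.6% for the SMARCD family and 68.1% for the ARID1 pair, and the groups did not overlap for any of the 4. With the longest coding transcripts the ATPase pair stood at 74.3% and the SMARCD family at 74.0%. These sums were not tested.

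The other subunits of SWI/SNF complexes were examined as a list of 21 genes. Of these 18 were tested, 10 were lower at D5, 6 were higher and 2 (*Bcl7b* and *Bicral*) were not called. Of all genes tested, 40.8% were lower and 42.2% higher. The median log2 fold change of the list was -0.22. *Smarcb1*, a core subunit (BAF47), decreased from 123 ± 2.61 (SD, n = 3) to 48.4 ± 0.646 CPM (SD, n = 3), which was -1.35 as log2 fold change, a stronger decrease than in any of the 8 paralogs that fell. *Ss18* fell with a log2 fold change of -1.53, whereas its paralog *Ss18l1* rose with 0.28. *Smarce1* (BAF57), also of the core, was at 90.9% of its D0 level (log2 fold change -0.14, adjusted p = 4.2e-04). *Actb*, which is both a subunit and a cytoskeletal actin, had the lowest log2 fold change of the list with -2.49.

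Among subunits specific to the PBAF form, *Pbrm1* and *Arid2* decreased with log2 fold changes of -0.56 and -0.63, and *Brd7* and *Phf10* increased with 0.51 and 0.13. *Brd9* and *Bicra*, which belong to the non-canonical form, decreased with -0.44 and -0.30. In the DPF family of histone-binding subunits, *Dpf2* increased with 0.17, and *Dpf3*, known in heart and skeletal muscle, was counted 2, 1 and 5 times at D0 and 25, 33 and 35 times at D5. The log2 fold change of *Dpf3* was 4.14 (SE 0.39, edgeR adjusted p = 6.0e-11). With each library left out in turn it ran from 3.72, without D0 replicate 2, to 4.89, without D0 replicate 3. *Dpf1* was called lower with -0.33, a call that was lost with DESeq2 and without D0 replicate 2 or D5 replicate 1. In the BCL7 family *Bcl7a* decreased with -0.76 and *Bcl7c* increased with 0.38. *Bcl11a* had 0 counts and *Bcl11b* at most 1 in any library, so with *Actl6b* these were the 3 subunits not tested. The call of *Phf10* was lost with total counts and without a filter on low counts, and that of *Dpf1* as given above. When the ERCC spike-ins set the scale, only *Dpf3* was called higher and only *Actb*, *Ss18*, *Smarcb1* and *Bcl7a* lower, and *Brd7*, *Phf10*, *Dpf2*, *Ss18l1* and *Bcl7c* took negative values that were not called.

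ATPases of the other remodeller families were taken as a further comparison of 17 genes, of which 16 were tested. Here 12 were lower and 4 higher at D5, against 40.8% and 42.2% of all genes tested. The median log2 fold change was -0.31. *Hells*, a remodeller tied to DNA methylation and replication, fell most, from 130 ± 3.97 (SD, n = 3) to 5.17 ± 0.155 CPM (SD, n = 3), which was -4.66 as log2 fold change. *Smarca5*, the ISWI ATPase SNF2H, had a log2 fold change of -0.14 and *Ino80* one of -0.41. *Chd3* rose from 386 ± 2.75 (SD, n = 3) to 676 ± 25.4 CPM (SD, n = 3), which was 0.81 as log2 fold change, and *Chd9*, *Chd4* and *Chd5* rose with 0.55, 0.18 and 1.93. On the ERCC scale 1 of the 16 (*Chd5*) was called higher and 3 lower, and the signs of *Chd4* and *Chd9* turned. *Smarca2* at 1.90 and *Chd5* at 1.93 were the only ones of the 18 tested ATPases, SWI/SNF included, with a log2 fold change above 1, and *Chd5* had at most 51 counts in any library.

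**Figure D4:**
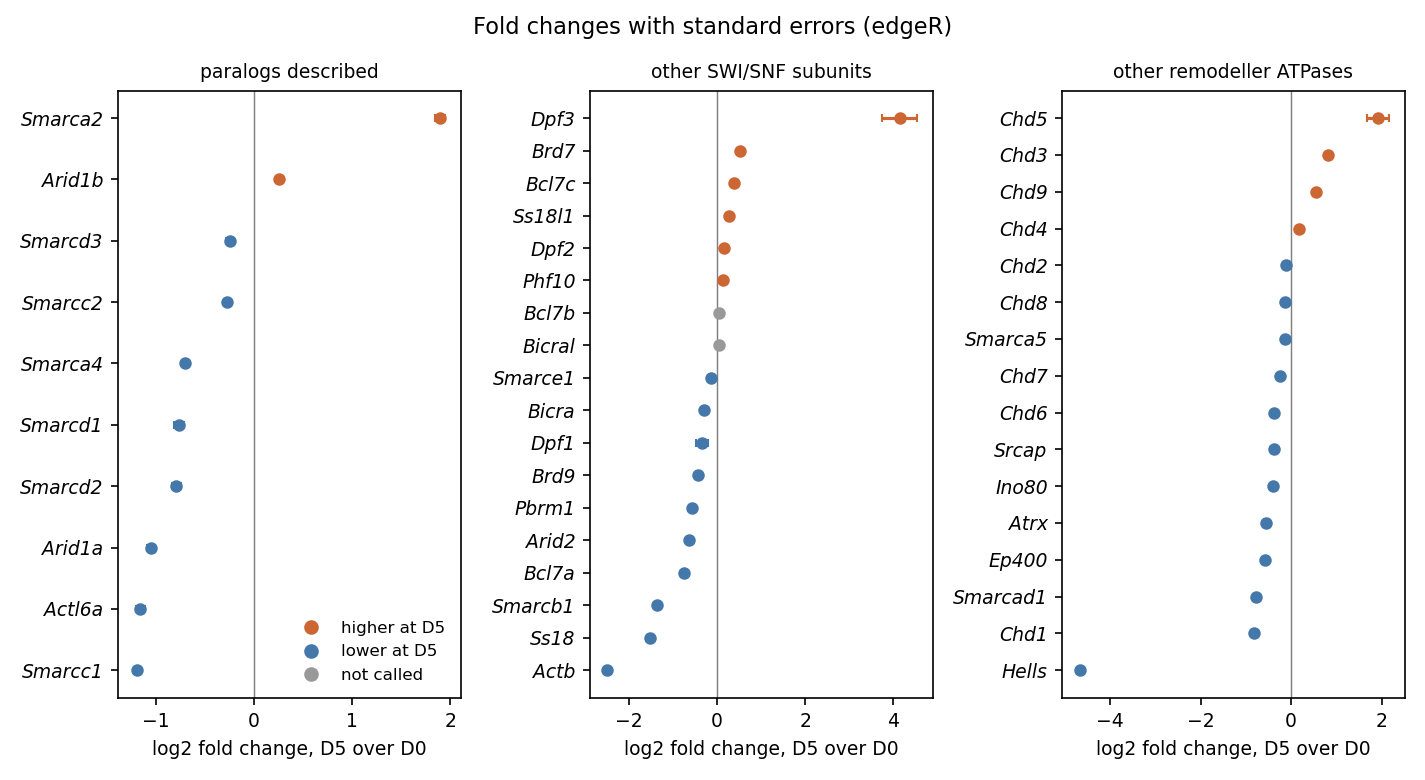
Log2 fold changes (D5 over D0, edgeR, bars are standard errors) of the 10 paralogs (left), the 18 other SWI/SNF subunits tested (middle) and the 16 other remodeller ATPases tested (right), each sorted. Orange points were higher, blue points lower and grey points not called at an adjusted p threshold of 0.05. The horizontal axes of the 3 panels differ in range.

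Factors that work with SWI/SNF on muscle genes did not move as a group. *Myod1* started at 207 ± 6.24 CPM and decreased to 126 ± 3.95 CPM (SD, n = 3 each), whereas *Myog* rose with a log2 fold change of 7.54. *Mef2d* increased as well, by 1.22 on the log2 scale, and *Mef2c* by 7.96. *Mapk14*, which encodes the p38 alpha kinase that phosphorylates BAF60C, stood at 57.8 ± 2.31 CPM in D0 libraries against 55.0 ± 1.92 CPM in D5 libraries (SD, n = 3 each) and was not called, with a log2 fold change of -0.07 (edgeR adjusted p = 0.12). This was called lower with total counts, without a filter on low counts and without D0 replicate 1. *Prmt5* and *Carm1*, arginine methyltransferases of muscle promoters, decreased with log2 fold changes of -0.18 and -0.51. The calls of *Mef2d*, *Prmt5* and *Carm1* were lost on the ERCC scale. Of all genes tested, those with a profile over the 6 libraries most like that of *Smarcd3*, by Euclidean distance of centred log2 CPM, were *Phf20* (distance 0.039), *Wac* (0.047), *Zfp516* (0.048), *Spred2* (0.049) and *Speg* (0.049), which had log2 fold changes from -0.25 to -0.22.

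The scaling of libraries moved all of these fold changes together. With DESeq2, upper-quartile normalization or total counts, all 10 paralogs kept their direction and their call. With scaling to the ERCC spike-ins the median log2 fold change of all genes was -0.58, 67.4% of the calls over all genes were lower at D5 against 49.2% with TMM, and the standard errors of the paralogs rose to between 0.51 and 0.53. *Smarca2* was still higher (log2 fold change 1.30, edgeR adjusted p = 0.041), *Smarca4*, *Smarcc1*, *Smarcd1*, *Smarcd2*, *Arid1a* and *Actl6a* were still lower, and *Smarcc2*, *Smarcd3* and *Arid1b* were not called. The spike-in shares were 0.859%, 0.828% and 0.726% in the D0 libraries and 1.20%, 0.720% and 2.09% in the D5 libraries. On this scale *Smarcd3* was at -0.97, -0.13 and -1.74 (log2 to the D0 mean) in D5 replicates 1, 2 and 3. Relative to the median shift of all genes, *Arid1b* at -0.31 and *Smarca2* at 1.30 were above it, and the other 8 paralogs were below it. The ratios between paralogs do not depend on any of these scalings.

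**Figure D5:**
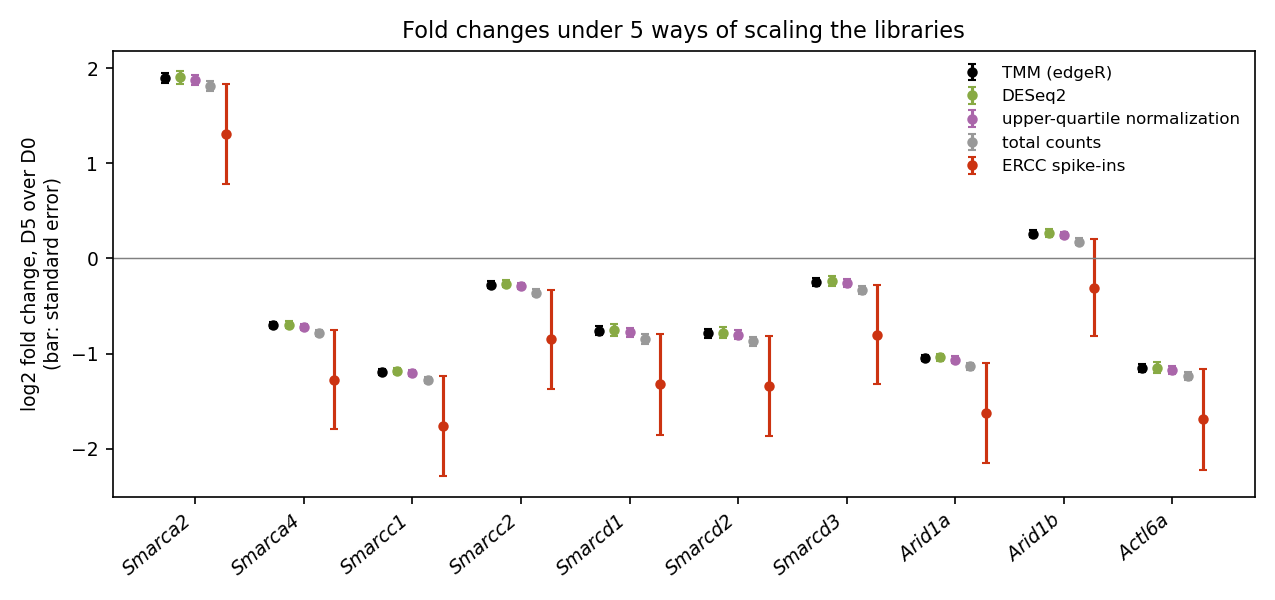
Log2 fold change of each paralog (D5 over D0, bars are standard errors) with TMM in edgeR, DESeq2, upper-quartile normalization, total counts and the ERCC spike-ins. The first 4 lie close together, and the spike-in values (red) are lower for every gene, with *Arid1b* at -0.31 and *Smarca2* at 1.30.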

How the data were processed

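The authors deposited 1 table per library with raw counts per gene from featureCounts on reads aligned to GRCm38. The labels name Tophat2 as the aligner and the methods of the study HISAT2. The annotation release, the strand setting and the handling of multi-mapped reads are not given in the sources used here. Counts were analysed as deposited, after removal of 92 ERCC rows and of an unnamed row that equalled the column total. Of the gene identifiers, 99.9% were found in GENCODE M21, which gave positions and exonic lengths. Promoter sequences are those of RefSeq on GRCm38.p6.

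R 4.3.3 with edgeR 4.0.16 gave TMM factors, CPM, fold changes and p-values (filterByExpr, quasi-likelihood test, Benjamini-Hochberg adjustment over 16290 genes, threshold 0.05), on 3 D0 and 3 D5 libraries grouped by their titles. The SE of a fold change is its size over the root of the F statistic. P-values measure the spread between samples of 1 line, which may be technical. Counts of replicates differed by more than sampling noise (chi-square over degrees of freedom at least 2.16 in each pair). The log2 ratios of paralogs were compared by an exact permutation test of the 20 arrangements. Alternatives were DESeq2 1.42.0, upper-quartile factors, total counts, ERCC spike-ins, no filter, at least 10 counts in every library, a replicate block and each library left out. The edgeR and DESeq2 fits were also run on simulated counts, in which a far smaller share of genes changed than in these data. The outcome is not given here. Named genes were the 10 members, the genes of the fixed lists, and the 5 genes nearest to *Smarcd3*, while *Chpf2*, *Mir671* and *Mrpl47* were named after their overlap was seen. The members and lists were chosen with earlier results of these data known, and the lengths of the longest coding transcripts and of bases free of overlap were added after the data were seen. Where a gene had 0 counts, the bound of 3 counts covers counting error only.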

Additional observations from a re-analysis of the deposited data

How the results depend on the processing

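Scaling to the ERCC spike-ins was the only setting that changed a call or direction among the 10 paralogs. It left 5560 genes past the threshold in place of 13510, 1 paralog higher (*Smarca2*), 1 of the other SWI/SNF subunits higher and 4 lower, and 1 of the other remodeller ATPases higher and 3 lower. *Smarcc2* at -0.85 and *Smarcd3* at -0.80 were no longer called, and *Arid1b* turned to -0.31 and was not called either. The cause was not tested. Over the other settings genes past the threshold numbered from 11494 to 15274. Leaving out each library in turn kept 8 paralogs lower and 2 higher, with log2 fold changes from 1.87 to 1.94 for *Smarca2*, from -0.28 to -0.22 for *Smarcd3* and from 0.24 to 0.29 for *Arid1b*. Shares within families depend on the gene length used.

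Whether replicate numbers pair the samples is not settled. Deviations of D0 and D5 libraries with the same number correlated at -0.0022, 0.20 and 0.073 across 9401 genes, which are not independent replicates. With different numbers the correlations ran from -0.15 to 0.082, so the value of 0.20 was the highest. With the replicate number as a block, 13558 genes passed, and 8 paralogs were lower and 2 higher.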
